A study of Homo sapiens with 24 samples.

Results

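Proteasome genes were followed across all conditions of T-47D cells, an established ER-positive (estrogen receptor-positive) breast cancer cell line, after transfection with miRNA mimics or a miRNA inhibitor. The set was chosen by name: rows of the count tables whose symbol is PSM, a letter from A to G and a number, with a mean of at least 1 CPM (counts scaled to the library total) over the 24 libraries. Levels of single libraries given below are normalized CPM, which are further scaled between libraries. Of 26364 genes in the tables, 48 had such a symbol and 44 passed the level filter, and those 44 were also tested in every comparison. They comprised 7 genes of the alpha ring and 7 of the constitutive beta ring of the core, PSMB10 of the immunoproteasome, 9 genes of the base and 8 of the lid of the regulatory particle, 7 assembly factors, and 5 genes of other activators or of the inhibitor PI31. The 4 rows below the filter were PSMA8, PSMB8, PSMB9 and PSMB11.

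The 26S proteasome is the protease that degrades ubiquitin-tagged proteins. Its barrel-shaped core stacks rings of alpha subunits, which gate the entrance, around rings of beta subunits, of which PSMB5, PSMB6 and PSMB7 carry the peptidase sites. The regulatory particle caps the core: its base holds the ATPases PSMC1 to PSMC6, which unfold substrates, and its lid holds the deubiquitinase PSMD14. In cells exposed to interferon, PSMB8, PSMB9 and PSMB10 take the places of PSMB5, PSMB6 and PSMB7, which changes the peptides made for antigen presentation, and the complex of PSME1 and PSME2 can cap the core instead of the regulatory particle.

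The clones had the WT ESR1 gene or were heterozygous for the Y537S or D538G mutation at the endogenous ESR1 locus, and each genotype was represented by 2 clones, so that a difference between genotypes cannot be told apart from other differences between clones. All cells were kept in hormone-deprived medium, transfected at 10 nM and collected 24 h later. The mimic of miR-301b-3p was given to clones of all 3 genotypes. That of miR-331-3p was given to Y537S and WT clones, and that of miR-181c-5p to D538G and WT clones. Each genotype also had libraries with a mimic negative control. An inhibitor of let-7f-5p and its own negative control were given to Y537S clones alone. The labels write the Y537S genotype as Y573S in places. These made 12 conditions with 1 library per clone, and libraries held 31379962 to 50526442 counts. Among luminal markers, KRT8 lay between 2219 and 5054 CPM and GATA3 between 1365 and 1711 CPM over all libraries, while PTPRC of leukocytes and PECAM1 of endothelium did not exceed 0.178 and 0.119 CPM. The reads came from whole cultures, in which fewer cells expressing a gene and less RNA per cell cannot be told apart.

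The mimics and the inhibitor were directed at 4 miRNAs. Their mature sequences (RefSeq) are shown because the seed, bases 2 to 8 in capitals, pairs with target sites in 3′UTRs. The 4 seeds are all different.
miR-301b-3p: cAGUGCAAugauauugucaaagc
miR-331-3p: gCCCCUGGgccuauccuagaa
miR-181c-5p: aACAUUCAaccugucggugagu
let-7f-5p: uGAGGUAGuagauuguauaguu

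Seed matches were uncommon in these genes. A 7-base match to the seed of miR-301b-3p was found in the 3′UTR of 4 of the 44 genes (9.09%, against 14.2% of all 18769 genes with a 3′UTR), to that of miR-331-3p in 4 genes (9.09% against 14.1%), to that of miR-181c-5p in 5 genes (11.4% against 19.4%) and to that of let-7f-5p in 1 gene (2.27% against 9.84%). The median 3′UTR of the proteasome genes was 351.5 bases long, against 1087 bases over all genes. Sites for miR-301b-3p and miR-331-3p that bear on the results are shown 5′ to 3′ on the transcript, with the match in capitals (GRCh37, canonical GENCODE transcripts).
PSMD12, miR-301b-3p, chr17:65334597-65334603, minus strand: gtcccagtgaccaaaTTGCACTcgactcga
PSMD2, miR-331-3p, chr3:184026686-184026692, plus strand: gtgaccaCCAGGGGctctgaac
PSME3, miR-331-3p, chr17:40993610-40993616, plus strand: ggccagggccagggCCAGGGGactctgtg
PSMF1, miR-331-3p, chr20:1152590-1152596, plus strand: gaagagagggatggcCCAGGGGcccttggc
PSMD11, miR-331-3p, chr17:30808689-30808695, plus strand: ttcctcctctcccctCCAGGGGagtcaggc

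Levels were first compared per length, as the mean normalized CPM over the 24 libraries divided by the length of the canonical transcript in kb. The median was 118 CPM per kb for the alpha ring, 97.1 for the constitutive beta ring, 68.9 for the base, 57.3 for the lid, 68.0 for the activators and inhibitor and 25.4 for the assembly factors. PSMD2, a scaffold of the base, had the highest level per length at 293 CPM per kb, followed by PSMB4 of the beta ring at 292 CPM per kb. Within the other classes the highest levels were those of PSMA7 (230 CPM per kb), PSMD3 (96.5), PSME3 (91.7) and PSMD5 (43.8). The lowest were those of PSMA5 (20.9 CPM per kb), PSMB2 (27.8), PSMC1 (27.2), PSMD12 (28.3), PSMF1 (19.8) and PSMG4 (8.997), and the canonical transcripts of these genes other than PSMG4 are long, from 3815 to 8154 bases. PSMB10 stood at 6.38 CPM per kb, below every other proteasome gene that passed the filter.

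Of the 3 inducible immunoproteasome subunits, only PSMB10 could be followed. PSMB8 had 0 counts in all 24 libraries and PSMB9 had at most 2 counts in a library. Both genes lie in the major histocompatibility complex on chromosome 6, where genes used by every cell were also listed near 0: CSNK2B had a mean of 0.0227 CPM, CLIC1 0.0322 CPM and DDX39B 0.146 CPM. Within the 4-Mb stretch from 3.5 Mb before to 0.5 Mb after the start of PSMB9, 104 of 156 coding genes (66.7%) had a mean under 0.05 CPM, against 22.3% of all coding genes. PSMB8 and PSMB9 are thus given as listed at or near 0, which cannot be read as absence of their transcripts. PSMA8, a testis-specific alpha subunit, had 0 counts in every library, and PSMB11, the thymus-specific subunit, had at most 2.

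**Figure D1:**
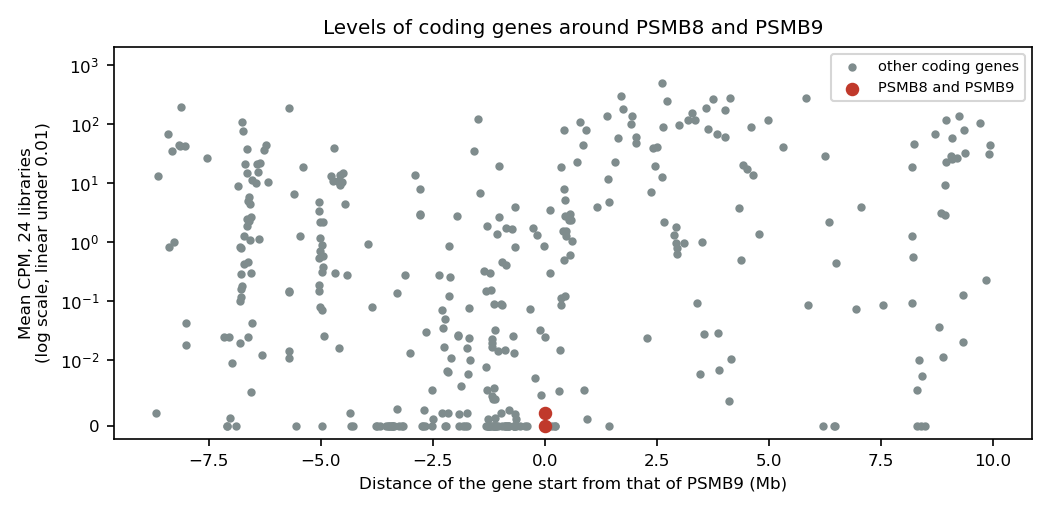
Mean CPM over the 24 libraries (vertical axis, logarithmic above 0.01) of coding genes within 10 Mb of PSMB9, plotted by distance of the gene start in Mb (horizontal axis). Genes from 3.5 Mb before to 0.5 Mb after PSMB9 were mostly listed near 0 together with PSMB8 and PSMB9 (red). Genes from 0.5 to 10 Mb after it had a median of 9.14 CPM, and genes from 10 to 3.5 Mb before it 0.883 CPM.

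Between genotypes, levels were first summed over the 44 genes. The sum was 5358 to 5831 CPM in the 8 WT libraries, 6395 to 8355 CPM in the 10 Y537S libraries and 6169 to 6887 CPM in the 6 D538G libraries, so that WT libraries did not overlap with those of either mutant whatever the treatment. As a plain share of the counts of a library, the sum was 0.555% to 0.586%, 0.655% to 0.749% and 0.621% to 0.686%. The base differed in the same way, with 1718 to 1894 CPM in WT, 2173 to 2959 CPM in Y537S and 2199 to 2453 CPM in D538G libraries. The lid was at 844 to 947 CPM in WT against at least 1054 CPM in Y537S and 1021 CPM in D538G libraries. The alpha ring was at 896 to 966 CPM in WT, 1044 to 1349 CPM in Y537S and 971 to 1087 CPM in D538G libraries. The constitutive beta ring overlapped between all genotypes, at 755 to 886, 848 to 1316 and 841 to 991 CPM. The summed level of the activators and inhibitor overlapped between all genotypes too, at 737 to 853, 782 to 989 and 724 to 811 CPM. The tests below used only the libraries with the mimic negative control, and Y537S and D538G were both compared with the same WT libraries.

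In Y537S against WT cells, 12 of the 44 genes were higher and 1 was lower (16.3% and 12.7% of all 15106 genes tested were called in these directions), with a median log2 difference of 0.211 against -0.00264 over all genes. The 12 were PSMA4, PSMA7, PSMB7, PSMC1, PSMC3, PSMD2, PSMD3, PSMD8, PSMD11, PSMD12, PSMD14 and PSMG1. By class, 2 of 7 alpha, 1 of 7 beta, 3 of 9 base and 5 of 8 lid genes were higher, as was 1 of 7 assembly factors. PSMA4, an alpha subunit, was at 101 and 102 CPM in the WT clones and at 177 and 149 CPM in the Y537S clones (log2 difference 0.70 ± 0.09 SE, adjusted p = 0.00201). PSMC3, an ATPase of the base, was at 157 and 172 CPM in WT and 273 and 238 CPM in Y537S clones (0.65 ± 0.09, adjusted p = 0.00244). PSMG1, an assembly chaperone of the alpha ring, was at 29.2 and 28.4 CPM in WT and 45.4 and 45.4 CPM in Y537S clones (0.67 ± 0.10, adjusted p = 0.00284). For these 3 genes the clones of the 2 genotypes did not overlap. PSMB7 was higher by 0.58 ± 0.10 and PSMC1 by 0.33 ± 0.09, while PSMA1 (0.03 ± 0.08), PSMD1 (0.18 ± 0.07) and PSMB6 (0.15 ± 0.09) did not pass the test. The gene that was lower was PSME4, which encodes the activator PA200, with 262 and 299.5 CPM in WT against 208 and 202 CPM in Y537S clones (-0.44 ± 0.09, adjusted p = 0.00959).

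Throughout, the share of all genes called with a library left out is not given here. The count in Y537S cells depended on single libraries. It was 5 without either WT control library and 22 without the control library of Y537S clone 2. The same genotypes compared in the miR-301b-3p libraries gave 9 genes higher and 0 lower (12% and 8.37% of all genes), by edgeR's quasi-likelihood test, and in the miR-331-3p libraries 37 higher and 1 lower (24.8% of all genes in each direction). Both comparisons were added after the data were seen.

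In D538G against WT cells, 21 genes were higher and 7 were lower (20.4% and 18.5% of all 14942 genes tested), with a median log2 difference of 0.193 against -0.000776 over all genes. Higher were 4 of 7 alpha, 2 of 7 beta, 5 of 9 base and 5 of 8 lid genes, 4 of 7 assembly factors and PSME3, which encodes the nuclear activator PA28 gamma. PSMG4, an assembly chaperone of low level, was at 4.01 and 4.24 CPM in WT and 9.86 and 7.94 CPM in D538G clones (log2 difference 1.10 ± 0.20 SE, adjusted p = 0.00232). PSMA4 was at 173 and 197 CPM in D538G clones (0.86 ± 0.08, adjusted p = 7.1e-05), and PSMC3 at 242 and 253 CPM (0.58 ± 0.07, adjusted p = 0.000333). Neither overlapped with the WT values given above. PSMD2 was at 632 and 681 CPM in WT and 958 and 952 CPM in D538G clones (0.53 ± 0.06, adjusted p = 0.000241). PSMB7 (0.50 ± 0.08) and PSMD1 (0.20 ± 0.07) were higher too, whereas PSMA1 (0.07 ± 0.08) and PSMB6 (0.20 ± 0.08) did not pass the test. Without WT control clone D1 the count fell to 18, of which 12 were higher.

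The 7 genes that were lower in D538G cells included the inducible activator. PSME1 was at 80.6 and 87.4 CPM in WT and at 41.5 and 41.7 CPM in D538G clones (-1.03 ± 0.08, adjusted p = 3.15e-05). PSME2, its partner in the PA28 ring, was at 55.8 and 56.1 CPM in WT and 31.6 and 33.7 CPM in D538G clones (-0.79 ± 0.09, adjusted p = 0.000147). PSMB5, the chymotrypsin-like peptidase of the constitutive core, was at 67.5 and 72.5 CPM in WT and 41.2 and 42.6 CPM in D538G clones (-0.75 ± 0.08, adjusted p = 0.000149). For all 3 the clones of the genotypes were clearly separated, and the lower level was seen in all 6 D538G libraries, where PSMB5 did not exceed 55.6 CPM and PSME1 did not exceed 42.3 CPM. PSME4 was lower by a like amount as in Y537S cells, at 198 and 218 CPM (-0.44 ± 0.08, adjusted p = 0.00301). PSMD7 (-0.41 ± 0.07), PSMA6 (-0.34 ± 0.07) and PSMA3 (-0.29 ± 0.07) were lower as well.

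The position of these genes went with their difference. PSME1, PSME2 and PSMB5 lie close together on chromosome 14, and the 89 other tested genes within 5 Mb of each had a median log2 difference of -0.947 between D538G and WT cells. All 471 tested genes of chromosome 14 had a median of -0.503, and 7 proteasome genes lie on it. Of these 7, PSMA6 and PSMA3 were called lower beside neighbours at -0.435 and -0.401, and PSMC6 (-0.16) and PSMC1 (-0.16) were not called beside neighbours at -0.448 and -0.529. PSMD7 on chromosome 16 lay beside neighbours at -0.552. PSME4 on chromosome 2 was the exception, with its 20 neighbours at 0.0243. In Y537S cells the neighbours of PSME1, PSME2 and PSMB5 were at -0.0931, and these genes stood at -0.08, 0.22 and 0.20 with none called.

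Neighbours were also higher beside some of the genes that were higher. PSMA4 on chromosome 15 had neighbours at 0.516 in D538G and 0.467 in Y537S cells, and PSMD11 had neighbours at 0.378 and 0.206. For PSMC3, PSMG1 and PSMG4 the neighbours in D538G cells were at 0.0106, 0.0219 and 0.00921. All 21 genes that were higher in D538G cells stood above the median of their neighbours, by a median of 0.308. So did all 12 that were higher in Y537S cells, by a median of 0.371. These genes were picked for a positive difference, which largely fixed this in advance. Over all 44 genes the median difference from the neighbours was 0.225 in D538G and 0.244 in Y537S cells, with 40 and 42 genes above. DNA copy number was not measured here, and the part of the chromosomal neighbourhood in these differences was not tested.

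**Figure D2:**
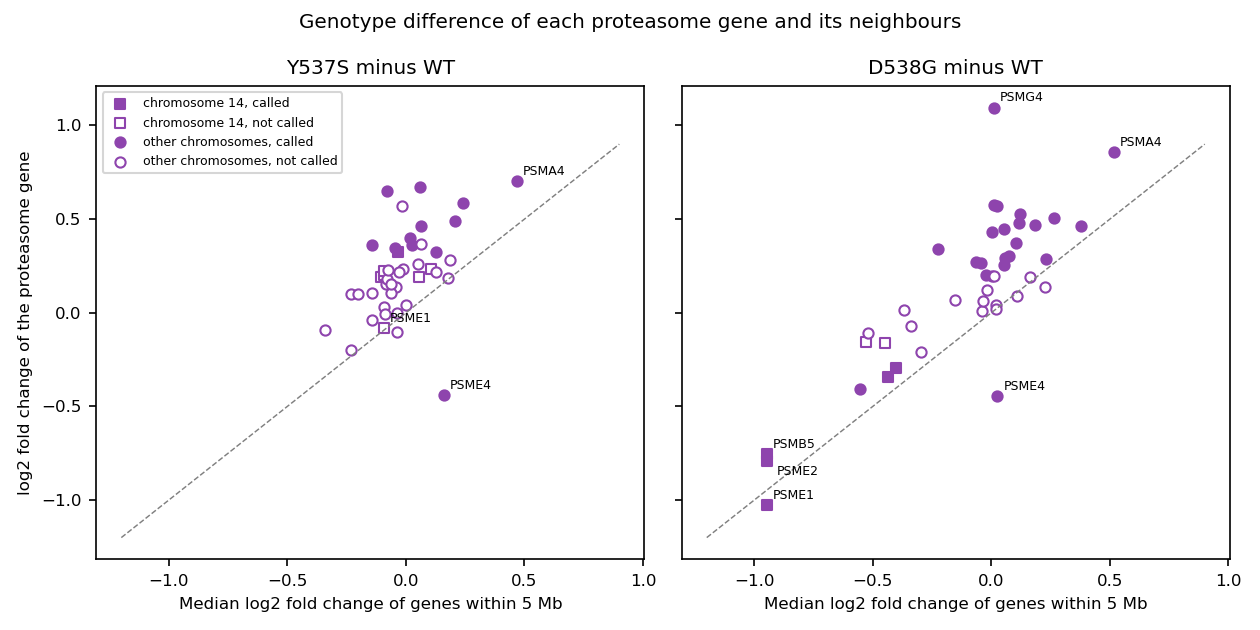
Log2 difference of each of the 44 proteasome genes from WT (vertical axis) against the median log2 difference of the other genes within 5 Mb (horizontal axis), for Y537S (left) and D538G (right) cells with the mimic negative control. Filled symbols are genes called, squares lie on chromosome 14, and the dashed line marks equal values: most points lie above it, while PSME1, PSME2 and PSMB5 sit with their neighbours near -0.947 in D538G cells.

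After the miR-331-3p mimic in Y537S cells, 20 of the 44 genes rose and 0 fell (17.2% and 15.8% of all 14877 genes tested), with a median log2 fold change of 0.283 against -0.0101 over all genes. With the clone as a block, 28 rose and 2 fell (30.5% and 30.2% of all genes). By class, 2 of 7 alpha, 5 of 7 beta, 4 of 9 base and 3 of 8 lid genes rose, with 2 of 7 assembly factors, 3 of 5 genes of the activators and inhibitor, and PSMB10. Among the classes with more than 1 gene, the beta ring had the highest median, 0.62, and the lid the lowest, 0.0162. These class counts and medians are without a GC correction, and the rises went with GC content, as given below. Class values with that correction are not given here.

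Constitutive beta subunits were among the genes with the largest rises. PSMB4 was at 226 and 236 CPM in the control libraries and at 406 and 375 CPM after the mimic (log2 fold change 0.78 ± 0.09 SE, adjusted p = 0.00643). PSMB3 was at 125 and 136 CPM and then at 222 and 216 CPM (0.76 ± 0.10, adjusted p = 0.00683). In both genes the treated clones lay far above the control clones, and above all other Y537S libraries. The peptidase PSMB6 was at 67.2 and 64.3 CPM and then at 113 and 96.2 CPM (0.69 ± 0.11, adjusted p = 0.0104). PSMB5 was at 83.0 and 76.5 CPM and then at 125 and 117 CPM (0.62 ± 0.10, adjusted p = 0.00953). The peptidase PSMB7 was at 109.7 and 94.6 CPM and then at 142 and 118 CPM (0.36 ± 0.13), which passed the test only with the block (adjusted p = 0.083 without and 3.97e-05 with it).

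Outside the beta ring, the lid scaffold PSMD3 rose from 187 and 192 CPM to 302 and 289.9 CPM (0.66 ± 0.09, adjusted p = 0.00729). PSMD8 of the lid rose by 0.66 ± 0.12 (adjusted p = 0.0126). PSMF1, which encodes the inhibitor PI31, rose from 148 and 158 CPM to 245 and 226 CPM (0.64 ± 0.10, adjusted p = 0.00893). PSMA1, PSMC1 and PSMD1 did not pass the test, at 0.08 ± 0.09, -0.05 ± 0.10 and 0.14 ± 0.09. With the block PSMD1 was called as a rise (adjusted p = 0.03), and the 2 genes called as falls were PSMD12 of the lid (-0.39, adjusted p = 1.51e-05) and PSMG1 (-0.20, adjusted p = 0.026). PSMD12 was at 141 and 153 CPM in control libraries and at 102 and 121 CPM after the mimic. Under a GC correction added to the block, 34 genes rose and 0 fell (30.3% and 23.1% of all genes), and PSMD12 (0.10, adjusted p = 0.187) and PSMG1 (0.03, adjusted p = 0.724) were not called.

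The seed match of miR-331-3p did not mark genes that fell. PSMD2, PSME3 and PSMF1, whose sites are shown above, all rose in Y537S cells, by 0.55 ± 0.08, 0.34 ± 0.08 and 0.64 ± 0.10, and PSMD11 was not called (0.08 ± 0.09). In WT cells none of the 4 was called, at -0.02 ± 0.06, -0.09 ± 0.06, 0.12 ± 0.06 and -0.11 ± 0.06.

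The Y537S count depended on single libraries and went with GC content. It was 12 without the miR-331-3p library of clone 1 and 10 without the control library of clone 2, with no gene falling in either. Of the 22 genes at or above the median GC content of the set (48.14%), 17 rose, and of the 22 below it 3 rose. Over all genes tested, 2243 of 7476 at or above that GC content rose, and 305 of 6890 below it. Their median log2 fold changes were 0.319 and -0.244. With a GC correction 17 genes rose and 0 fell (11.2% and 9.27% of all genes), and the median was 0.343 against 0.052 over all genes. Of the 17, 9 were in the upper and 8 in the lower group, where 1022 and 636 of all genes tested rose. PSMB4 (0.63), PSMB3 (0.59) and PSMF1 (0.61) were called with that correction, whereas PSMD8 (0.39, adjusted p = 0.0503), PSMC3 (0.32) and PSMB10 (0.42) were not.

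In WT cells the same mimic moved the genes in both directions. There, 4 genes rose and 9 fell (14.2% and 10.6% of all 15140 genes tested), with a median log2 fold change of 0.000618 against -0.00223 over all genes. With the block, 10 rose and 11 fell (19.8% and 17.2% of all genes). The genes that rose were PSMB6, PSMB10, PSMD3 and PSMG4, and those that fell were PSMA3, PSMB2, PSMC1, PSMC6, PSMD1, PSMD6, PSMD7, PSMD12 and PSMD14, so that 4 of 8 lid and 3 of 9 base genes fell. PSMD6 of the lid was at 80.6 and 78.2 CPM in control libraries and at 59.8 and 60.9 CPM after the mimic (-0.37 ± 0.06, adjusted p = 0.00225). PSMD12 was at 117 and 121 CPM and then at 91.1 and 95.0 CPM (-0.33 ± 0.06, adjusted p = 0.00392). PSMC1, an ATPase, was at 112 and 120.3 CPM and then at 91.0 and 90.8 CPM (-0.33 ± 0.07, adjusted p = 0.00488). In all 3 genes the treated clones lay below both control clones.

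Among the rises in WT cells, PSMD3 went from 142 and 149 CPM to 177 and 180.3 CPM (0.32 ± 0.06, adjusted p = 0.00359), and PSMG4 from 4.01 and 4.24 CPM to 6.56 and 6.96 CPM (0.74 ± 0.18, adjusted p = 0.0134). PSMB4 was at 225 and 254 CPM and then at 267 and 272 CPM (0.19 ± 0.07, adjusted p = 0.0566), which passed the test only with the block (adjusted p = 0.000884). PSMA1 (-0.06 ± 0.06), PSMB5 (0.16 ± 0.07) and PSMB7 (0.12 ± 0.07) were not called without the block. Without the miR-331-3p library of clone D1 or of clone D4 the count fell from 13 to 3 or 6. The direction in WT cells also went with GC content. Of the 22 genes at or above the median GC content of 48.14%, 4 rose and 1 fell, and of the 22 below it 0 rose and 8 fell. Over all genes tested, 2002 rose and 188 fell of 7555 at or above that GC content. Below it, 133 rose and 1398 fell of 6996. With the GC correction 6 proteasome genes rose and 2, PSMC1 and PSMD6, fell. Over all genes too fewer were called under it (5.11% up and 2.57% down). PSMD12, for example, stood at -0.10 (adjusted p = 0.385).

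**Figure D3:**
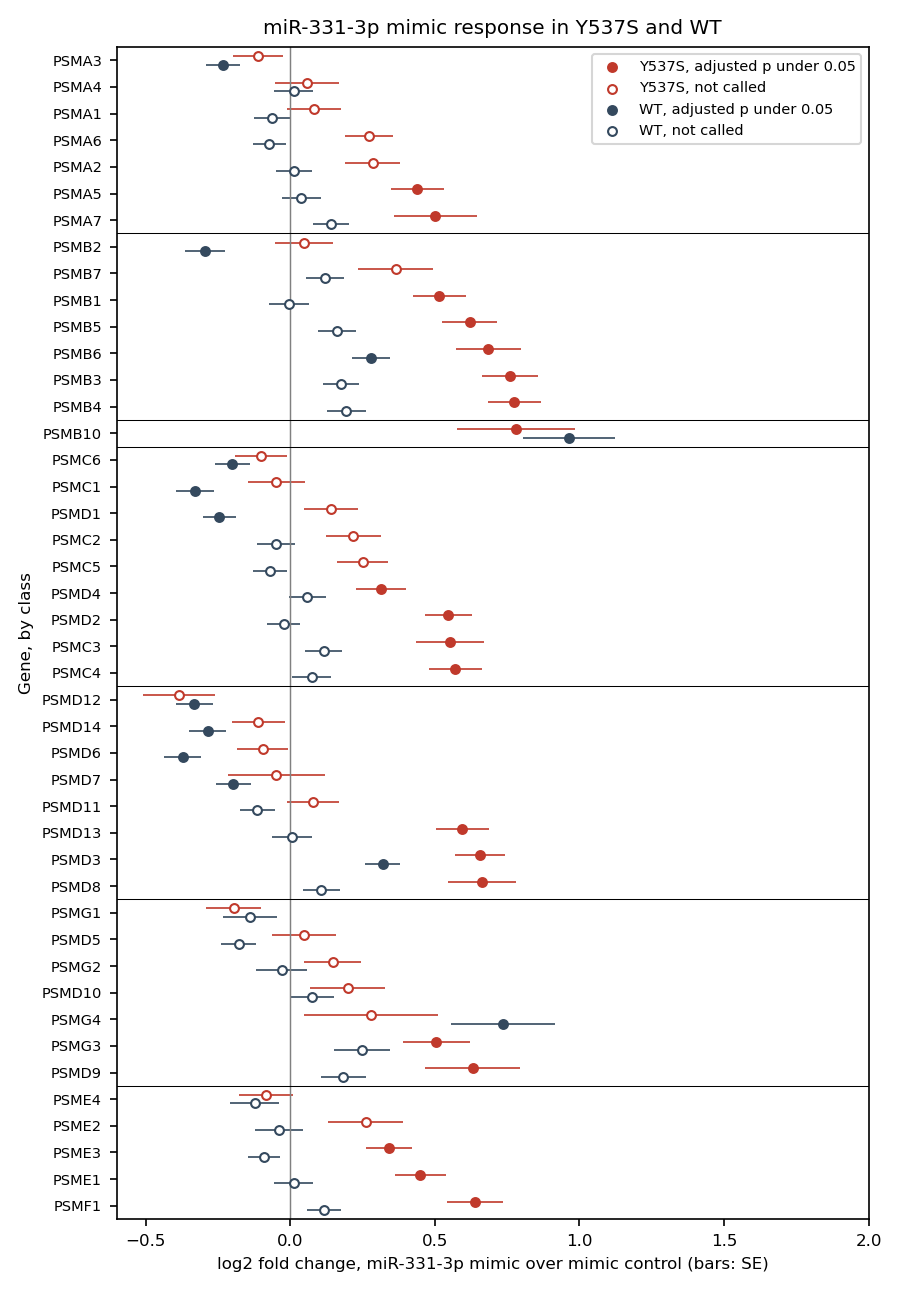
Log2 fold change after the miR-331-3p mimic of the 44 genes, by class, in Y537S (red) and WT (dark) cells; bars are standard errors, filled points are genes called. In Y537S cells the beta ring lies to the right of 0, with PSMB4 at 0.78, while in WT cells points lie on both sides, with PSMD6 at -0.37.

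The response itself differed between the genotypes. The difference of the log2 fold changes (Y537S minus WT) was called for 11 genes, all higher in Y537S cells (3.47% of all 15666 genes tested were called in this direction and 6.47% in the other), and its median was 0.275 against -0.0298 over all genes. With the block it was called for 28 genes, again all higher (16.7% of all genes, and 17.4% in the other direction). The 11 were PSMB1, PSMB3, PSMB4 and PSMB5 of the beta ring, PSMC4, an ATPase, and PSMD2 of the base, PSMD8 and PSMD13 of the lid, and PSME1, PSME3 and PSMF1. The largest difference was that of PSMD13, 0.57 ± 0.11 (adjusted p = 0.0175), which was at 81.5 and 85.5 CPM in WT control and 85.5 and 79.4 CPM in WT treated libraries, and at 76.05 and 78.0 CPM in Y537S control and 117 and 113 CPM in Y537S treated libraries. PSMB3 differed by 0.57 ± 0.11 (adjusted p = 0.0159) and PSMB4 by 0.57 ± 0.11 (adjusted p = 0.022). PSMA1 (0.13 ± 0.10), PSMB7 (0.23 ± 0.15) and PSMB10 (-0.20 ± 0.22) showed no difference that passed the test. The 11 calls rested on few libraries: leaving out either WT treated library or WT control clone D4 left 0, and every one of the 8 libraries but the miR-331-3p library of Y537S clone 2 lowered the count to 6 or fewer when left out. With the GC correction 5 of the 44 differences were called, all higher in Y537S cells (2.17% of all genes, and 5.54% in the other direction).

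PSMB10, the inducible beta subunit that replaces PSMB7, was low in every library, between 4.23 and 9.50 CPM. In WT cells it was at 4.91 and 4.95 CPM with the mimic negative control and at 9.42 and 9.50 CPM after the miR-331-3p mimic (0.96 ± 0.16, adjusted p = 0.00187). In Y537S cells it was at 4.235 and 4.26 CPM with the mimic negative control and at 7.33 and 7.10 CPM after that mimic (0.78 ± 0.20, adjusted p = 0.0356). These groups did not overlap in either genotype. After the miR-301b-3p mimic it stood at 6.63 and 7.39 CPM in WT and 6.76 and 6.92 CPM in Y537S cells, which passed the test only with the block (0.50 ± 0.17, adjusted p = 0.0392, and 0.66 ± 0.18, adjusted p = 0.00182). In D538G cells it was at 4.39 and 4.83 CPM with the mimic negative control and 5.001 and 6.77 CPM after the miR-301b-3p mimic (0.35 ± 0.23, adjusted p = 0.358). After the miR-181c-5p mimic in WT cells it was at 6.401 and 8.17 CPM, called only with the block (adjusted p = 0.0317). With the inhibitor negative control, which is directed at no miRNA, Y537S cells had 5.50 and 6.69 CPM, above the mimic negative control with the block (0.50 ± 0.18, adjusted p = 0.0473). Y537S and D538G cells did not differ from WT by the test, at -0.20 ± 0.22 and -0.11 ± 0.21. The transcript of PSMB10 has the highest GC content of the 44 genes, 61.72%, and with the GC correction only the rise after miR-331-3p in WT cells was called (0.63, adjusted p = 0.037).

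**Figure D4:**
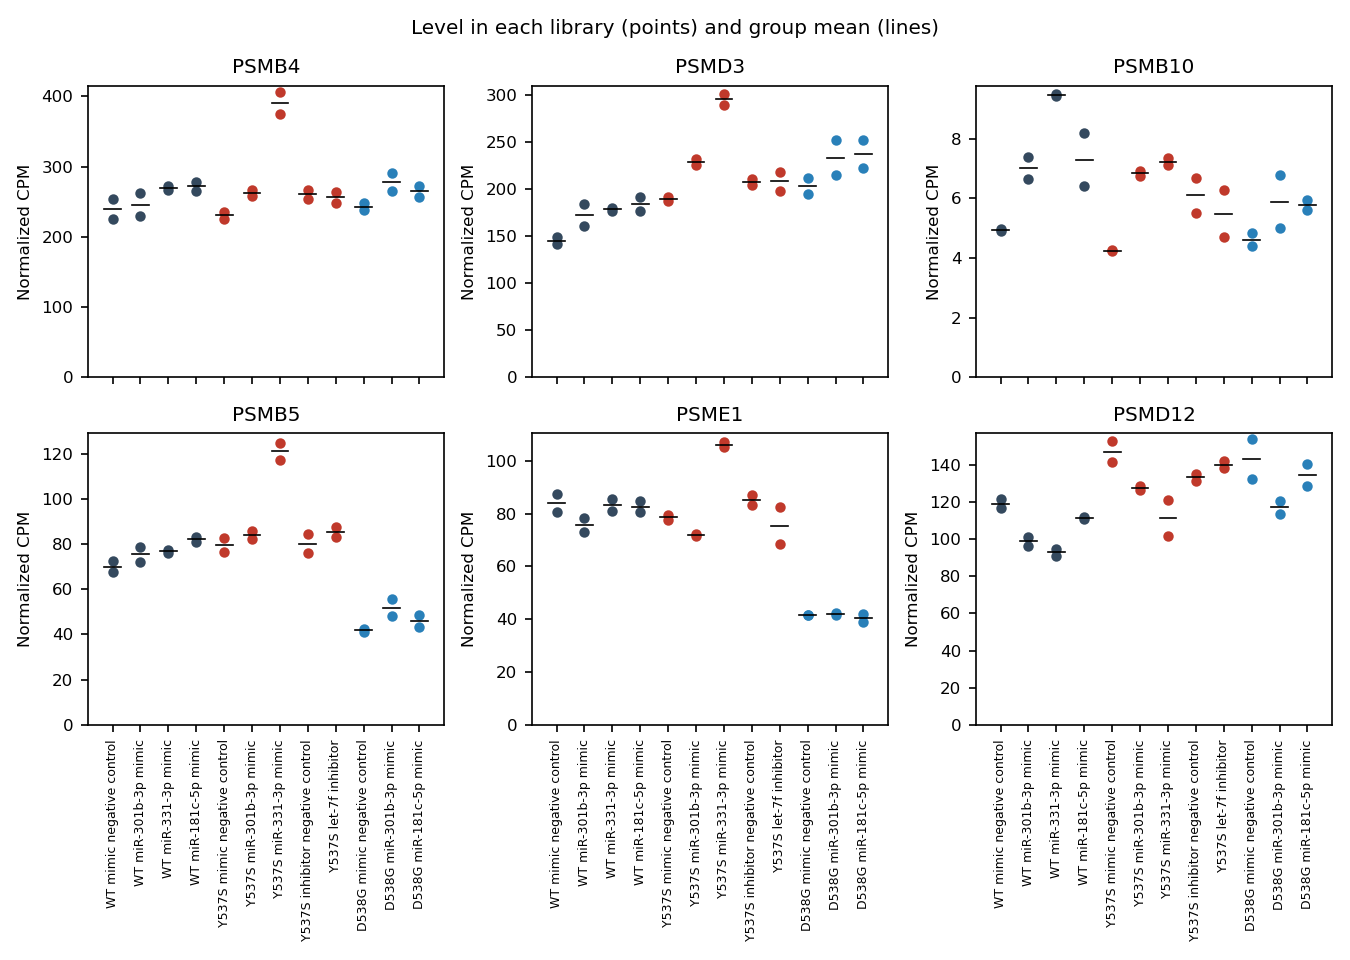
Normalized CPM (vertical axis, from 0) of 6 proteasome genes in each library (points, WT dark, Y537S red, D538G blue) with the mean of each condition (lines). PSMB4 and PSMB5 were highest after the miR-331-3p mimic in Y537S cells, and PSMB5 and PSME1 were lowest in all 6 D538G libraries.

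The miR-301b-3p mimic moved few proteasome genes. In Y537S cells 0 rose and 0 fell by edgeR's quasi-likelihood test (1.23% and 2.34% of all 15145 genes tested were called up and down). There, 5 of the 44 had an unadjusted p under 0.05, against 3510 of all 15145 genes. DESeq2 called 1 of the 44 and 1732 of all 19972 genes. In D538G cells 0 rose and 1, PSMG1, fell (5.29% and 6.49% of all 14845 genes). In WT cells 0 rose and 0 fell (4.63% and 3.87% of all 15113 genes). There, 5 of the 44 had an unadjusted p under 0.05, against 4025 of all 15113 genes. DESeq2 called 2 of the 44 and 1769 of all 20102 genes. Medians over the 44 genes were -0.0108, 0.00665 and -0.025, against 0.00732, 0.00554 and 0.000221 over all genes. With the clone as a block, 5 rose and 5 fell in Y537S cells (18.4% and 20% of all genes), 4 rose and 5 fell in D538G cells (16.4% and 16.9%), and 2 rose and 4 fell in WT cells (14% and 14.2%). These shares were no higher than those of all genes.

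With the block, PSMG1, PSMD1, PSMD12 and PSMD3 were called in the same direction in all 3 genotypes. PSMG1 went from 45.4 and 45.4 to 37.3 and 32.4 CPM in Y537S cells (-0.41 ± 0.09 with the block, adjusted p = 3.81e-05). In D538G cells it went from 43.8 and 42.6 to 33.7 and 31.9 CPM (-0.40 ± 0.10 without the block, adjusted p = 0.0293). In WT cells it went from 29.2 and 28.4 to 25.0 and 22.5 CPM (-0.28 ± 0.09 with the block, adjusted p = 0.0315). PSMD1, the largest scaffold of the base, went from 216 and 206 to 183 and 178 CPM in Y537S cells. It went from 216 and 223 to 182 and 197 CPM in D538G cells and from 188 and 189.7 to 149.5 and 161 CPM in WT cells. These falls of 0.25, 0.21 and 0.28 on the log2 scale were called with the block (adjusted p = 0.000151, 0.00441 and 0.00125). In all of these the treated clones lay below both control clones. PSMD12, which holds 2 matches to the miR-301b-3p seed, fell by 0.23, 0.29 and 0.27 on the log2 scale in Y537S, D538G and WT cells, also with the block only (adjusted p = 0.000899, 0.000175 and 0.00445). PSMD3 rose by 0.25 ± 0.06, 0.19 ± 0.06 and 0.24 ± 0.05 with the block. PSMB3 was called with the block in Y537S (0.18) and D538G cells (0.21). With the GC correction and no block none of these was called: PSMG1 stood at -0.25, -0.24 and -0.12, and PSMD12 at 0.05, 0.02 and -0.04. Under a GC correction added to the block, 7 rose and 4 fell in Y537S (14.1% and 14.2% of all genes), 7 rose and 1 fell in D538G (8% and 8.17%) and 5 rose and 1 fell in WT cells (7.36% and 7.3%). PSMG1 was then called as a fall in Y537S and D538G cells and not in WT cells (adjusted p = 0.389), PSMD1 in Y537S and WT cells and not in D538G cells (adjusted p = 0.148), and PSMD12 and PSMD3 in none of the 3.

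The other genes with a match to that seed were not called. PSMD9 stood at 0.10, 0.09 and 0.09 in Y537S, D538G and WT cells, and PSMA5 and PSMC2 between -0.09 and 0.05. PSMA1, PSMC1, PSMB6 and PSMB7 were called in none of the 3 genotypes, with or without the block, and PSMB5 only in D538G cells with it (0.30 ± 0.09, adjusted p = 0.00238). By edgeR, no difference of the response to miR-301b-3p between Y537S and WT or between D538G and WT cells was called for the 44 genes. Of all genes, 0.00632% and 0.0064% were called in either direction. Of the 44, 0 had an unadjusted p under 0.05, against 343 of all 15814 and 478 of all 15613 genes. DESeq2 called 0 of the 44 as well, against 1 and 2 of all genes. For PSMB10 the difference was 0.17 ± 0.25 and -0.15 ± 0.29 SE, which does not show that the genotypes responded alike.

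PSMD10 fell after the miR-181c-5p mimic. PSMD10 encodes gankyrin, an assembly chaperone of the base. It was at 41.6 and 42.0 CPM in WT control libraries and at 23.6 and 31.3 CPM after the mimic (-0.62 ± 0.13, adjusted p = 0.00965), and at 38.9 and 41.3 CPM in D538G control libraries and 28.0 and 27.9 CPM after it (-0.52 ± 0.10, adjusted p = 0.0126). The treated clones lay below all control clones in both genotypes. Its 3′UTR holds no 7-base match to the seed, and with the GC correction it stood at -0.42 (adjusted p = 0.076) and -0.34 (adjusted p = 0.12).

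PSMD10 was the only gene called in D538G cells, so that 0 rose and 1 fell (5.58% and 3.95% of all 14826 genes tested), and in WT cells 1 rose and 1 fell (8.1% and 8.28% of all 14968 genes), the rise being that of PSMD3, from 142 and 149 to 177 and 192 CPM (0.33 ± 0.08, adjusted p = 0.0156). With the block, 1 rose and 4 fell in D538G cells (15.6% and 13.6% of all genes), and 4 rose and 3 fell in WT cells (14.5% and 13.4%). PSMD13 of the lid was called as a fall in both with the block (adjusted p = 0.027 and 0.0419). The genes with a seed match were called in neither genotype: PSMA4, with 2 matches, stood at -0.08 and 0.07 in D538G and WT cells, PSMA5 at -0.05 and 0.06, PSMB2 at 0.01 and 0.07, PSMC2 at 0.01 and -0.03, and PSME4 at -0.04 and -0.07. Among the fixed genes, PSMA1, PSMC1, PSMB6 and PSMB7 were not called in either genotype, PSMD1 was called only in D538G cells with the block (-0.21, adjusted p = 0.00232), and PSMB5 only in WT cells with it (0.22, adjusted p = 0.0257). No difference of the response between D538G and WT cells was called by edgeR (0.00646% of all genes in either direction). Of the 44, 0 had an unadjusted p under 0.05, against 453 of all 15482 genes. DESeq2 called 0 of the 44 and 2 of all genes.

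The let-7f-5p inhibitor in Y537S cells moved no proteasome gene past the test by edgeR, which called 0% of all 15140 genes. Of the 44, 2 had an unadjusted p under 0.05, against 786 of all 15140 genes. DESeq2 called 0 of the 44 and 79 of all 19881 genes. With the block, 2 rose and 3 fell (4.31% and 6.88% of all genes). PSMD10 was at 41.7 and 46.0 CPM with the inhibitor negative control and at 32.5 and 36.8 CPM with the inhibitor (-0.33 ± 0.07, adjusted p = 0.00225). PSMA7 (-0.14 ± 0.03, adjusted p = 0.00844) and PSME1 (-0.18 ± 0.05, adjusted p = 0.0395) were the other falls, and PSMC1 (0.19 ± 0.04, adjusted p = 0.00474) and PSME4 (0.14 ± 0.04, adjusted p = 0.0152) the rises. PSMF1, the only gene with a let-7f-5p seed match, stood at 0.03 ± 0.08. PSMA1, PSMD1, PSMB5, PSMB6 and PSMB7 were not called with or without the block.

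The 2 kinds of negative control, an inhibitor and a mimic directed at no miRNA, were also compared with each other. Between the inhibitor and the mimic negative control in Y537S cells, 0% of all 15063 genes were called by edgeR. Of the 44, 0 had an unadjusted p under 0.05, against 1123 of all 15063 genes. DESeq2 called 0 of the 44 and 110 of all 19907 genes. With the block, however, 8 of the 44 genes were higher and 6 lower with the inhibitor control (8.87% and 7.84% of all genes). PSMB10 (0.50), PSMA5 (0.20 ± 0.06) and PSMD9 (0.19 ± 0.07) had the largest differences upward, and PSMC1 (-0.19 ± 0.05), PSMD7 (-0.18 ± 0.05) and PSMD14 (-0.16 ± 0.05) downward. PSMD3, PSMD1, PSMD12 and PSMB10, which were called after miR-301b-3p in Y537S cells with the block, were also called in the same direction between these controls, at 0.12, -0.12, -0.15 and 0.50.

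**Figure D5:**
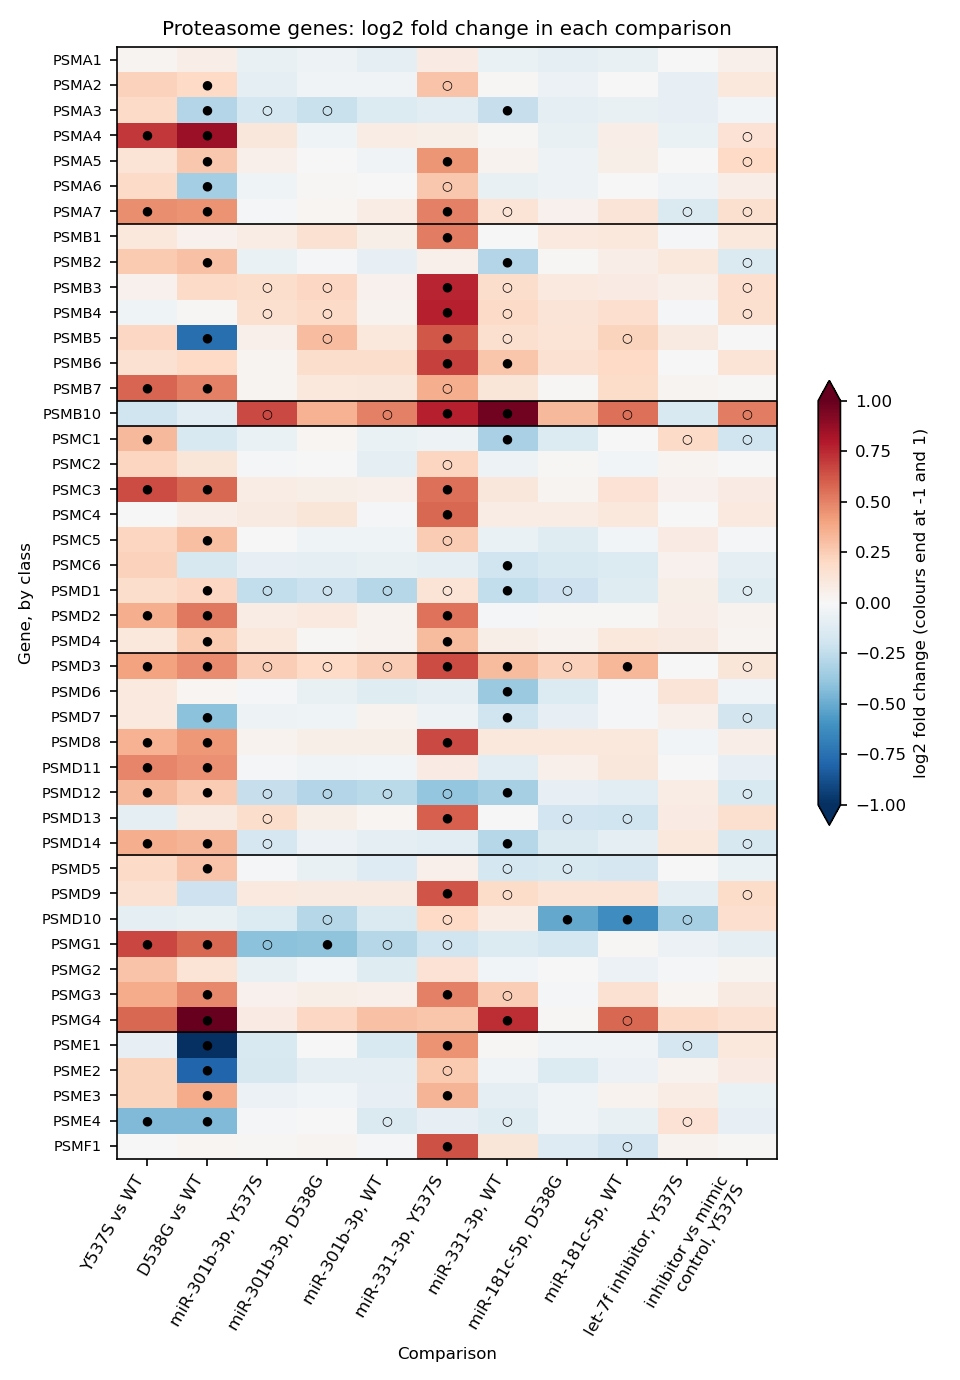
Log2 fold change (colour, ending at -1 and 1) of the 44 genes, ordered by class, in the 2 genotype and 9 treatment comparisons; filled circles are genes called and open circles are genes that passed only once the clone was a block. Calls are dense in the genotype columns and after miR-331-3p in Y537S cells, and PSMD3 is called, with or without the block, in every column but the let-7f-5p inhibitor.

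Proteins that work with the proteasome were looked at as lists outside the 44 genes. Of 9 further subunits and bound proteins, 2 rose and 2 fell after miR-331-3p in Y537S cells (17.2% and 15.8% of all genes): the ubiquitin receptor ADRM1 rose by 0.74 ± 0.10 (adjusted p = 0.0081) and PAAF1 by 0.36 ± 0.09, while the deubiquitinases UCHL5 (-0.66 ± 0.10, adjusted p = 0.0085) and USP14 (-0.33 ± 0.09) fell. In WT cells 1 rose, ADRM1 (0.50 ± 0.08, adjusted p = 0.0014), and 3 fell (14.2% and 10.6% of all genes). UBE3C, a ubiquitin ligase bound to the proteasome, fell after miR-301b-3p in Y537S, D538G and WT cells, by 1.15, 0.66 and 0.92 on the log2 scale (adjusted p = 0.021, 0.0052 and 0.0014), and after miR-181c-5p in D538G and WT cells by 0.44 and 0.73 (adjusted p = 0.011 and 0.0004). In control libraries 4 of these 9 genes were higher in Y537S than in WT cells (16.3% of all genes), and 5 were higher and 1 lower in D538G cells (20.4% and 18.5% of all genes), with UCHL5 at 0.74 ± 0.09 and 0.71 ± 0.09.

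Of 8 genes for the delivery of substrates, 4 rose and 0 fell after miR-331-3p in Y537S cells (17.2% and 15.8% of all genes), among them VCP, an unfoldase that extracts ubiquitinated proteins (0.61 ± 0.10, adjusted p = 0.011), and NPLOC4, its cofactor (0.52 ± 0.09, adjusted p = 0.012), and the response of VCP differed from that in WT cells (0.60 ± 0.12, adjusted p = 0.019). Higher in the mutants than in WT were 4 of the 8 in Y537S (16.3% of all genes) and 5 in D538G cells (20.4% of all genes), with UBQLN1 at 0.76 ± 0.10 and 0.79 ± 0.12. Among 6 listed regulators of proteasomes or of their genes, 1 rose after miR-331-3p in Y537S cells (17.2% of all genes). It was AKIRIN2, a factor for nuclear import of proteasomes (0.35 ± 0.10, adjusted p = 0.049). NFE2L1, the transcription factor that raises proteasome genes when proteasome activity is short, was higher in D538G cells (0.36 ± 0.06, adjusted p = 0.0018). NFE2L2, its relative of the oxidative stress response, was lower in D538G (-0.39 ± 0.07) and in Y537S cells (-0.28 ± 0.08). Of 8 tested genes for antigen processing, B2M was higher in Y537S (0.31 ± 0.07) and D538G cells (0.47 ± 0.08). Over all genes, 16.3% were called higher and 12.7% lower in Y537S cells, and 20.4% and 18.5% in D538G cells. TAP1, TAP2 and TAPBP of that list lie in the same stretch of chromosome 6 as PSMB8 and PSMB9, and their changes are not given.

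Promoters were searched for 3 motifs, on both strands, in the window from 250 bases before to 50 bases after the start of transcription (RefSeq, GRCh38.p14), which was given for 38 of the 44 genes. Matches of the motifs may overlap. NFE2L1 and NFE2L2 bind the antioxidant response element, and TGANNNNGC was searched as a loose form of its core. These letters were present for 24 of the 38 genes (63.2%, against 47.1% of all 27305 genes with a window). The ETS core CCGGAAG was present for 14 (36.8% against 12.2%) and CCAAT for 18 (47.4% against 39.7%). Genes that rose after miR-331-3p in Y537S cells included some with and some without a match to TGANNNNGC. Whether a match went with the rise was not tested. PSMB3, PSMB4, PSMB5, PSMD3 and PSMD8 rose and had a match, while PSMD2, PSMF1, PSME3 and PSMB10 rose and had none. PSMD12, called as a fall with the block, had a match. For 4 of the genes that rose and had a match, 30 bases around it are shown 5′ to 3′ in the direction of the gene, with the match in capitals.
PSMB3, chr17:38752627-38752656, plus strand, 104 bases before the start: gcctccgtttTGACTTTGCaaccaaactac
PSMB4, chr1:151399546-151399575, plus strand, 17 bases before the start, motif on the other strand: gttggcgcaaGCGCTTTCAttttttctgct
PSMD3, chr17:39980760-39980789, plus strand, 37 bases before the start: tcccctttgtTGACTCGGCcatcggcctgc
PSMD8, chr19:38374507-38374536, plus strand, 54 bases before the start: ggggtggtgtTGAGACAGCtgtcattttca
These matches describe the letters of the windows, and binding was not measured.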

How the data were processed

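Poly-A RNA-seq of T-47D clones was analysed from the 3 tables of raw read counts per gene that the authors deposited. Per the labels and the study's methods, the authors aligned reads with HISAT2 to hg19 and counted them with featureCounts on UCSC Known Genes. Versions of the tools, whether counting used strand, and how multi-mapping reads were handled are not given in the sources used here, so counts of overlapping or antisense genes are uncertain. Libraries held 31379962 to 50526442 counts.

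Each comparison used its own libraries: genes were kept by filterByExpr, scaled by TMM and tested with edgeR 4.0.16 (R 4.3.3, quasi-likelihood F-test, two-sided), with p-values adjusted by the Benjamini-Hochberg method over all genes tested, and genes with an adjusted p under 0.05 were called. The differences between responses are interaction terms. Standard errors are the absolute log2 fold change divided by the square root of F. Levels are TMM-normalized CPM. Libraries share clones across treatments, since same-numbered libraries come from the same clone, and the deviations of libraries of one clone correlated by 0.174 to 0.591 in all treatment comparisons. The fit with the clone as a block was an alternative, given where it changed calls. It could not be made between genotypes, which share no clone. Other alternatives were DESeq2 1.42.0, other scaling, no filter, a GC correction and leaving out each library. The fit was tested on simulated data.

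The rule for named genes took PSMA1, PSMC1, PSMD1, PSMB5 to PSMB10, the highest and lowest of each class per length, genes with a seed match and, in each comparison, the 3 largest rises and 3 largest falls among genes called (with the block where no gene was called without it), and of other lists up to 2 genes each way. Further genes named were chosen after their values were seen. The members and gene lists were chosen with earlier results of these data known. Gene positions and 3′UTRs are from GENCODE (GRCh37), and miRNAs and promoters from RefSeq (GRCh38.p14). Some items of the gene lists and target sites are not reported here.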

Additional observations from a re-analysis of the deposited data

Results flagged for a closer look

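The response to the miR-331-3p mimic differed between Y537S and WT cells for 11 proteasome genes by the test of the difference itself, the interaction term of edgeR's quasi-likelihood fit. Each difference (Y537S minus WT) was positive. On the log2 scale it was 0.5694 for PSMB3, 0.566 for PSMB4, 0.5052 for PSMB1 and 0.4437 for PSMB5 of the beta ring. It was 0.5534 for PSMD2 and 0.4806 for PSMC4 of the base, and 0.5737 for PSMD13 and 0.5401 for PSMD8 of the lid. For the activators and the inhibitor it was 0.4232 for PSME1, 0.4171 for PSME3 and 0.5065 for PSMF1. Each genotype had 2 clones, and leaving out 1 library gave between 0 and 14 such genes.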

How the results depend on the processing

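Counts of the 44 genes called changed under several alternatives, among them the clone as a replicate block, which pairs libraries of the same clone. For miR-301b-3p the block gave 10 in Y537S, 9 in D538G and 6 in WT cells, and with a GC correction as well 11, 8 and 6, with more rises and fewer falls. For miR-331-3p in WT cells the block gave 21, and in Y537S cells the block with the GC correction gave 34. For miR-181c-5p the block gave 5 in D538G and 7 in WT cells, and with the GC correction 11 and 9. For the let-7f inhibitor it gave 5, and 7 with the GC correction, for the negative controls 14 and 13, and for the difference in the miR-331-3p response 28 and 25. The GC correction without the block gave 0 for miR-301b-3p in D538G cells, 8 for miR-331-3p in WT cells, 0 and 1 for miR-181c-5p in D538G and WT cells, and 5 for the difference in the miR-331-3p response. DESeq2 gave 1, 2 and 2 for miR-301b-3p in Y537S, D538G and WT cells and 17 for the difference in the miR-331-3p response. Without the filter on low counts 3 were called for miR-301b-3p in D538G and in WT cells and 2 for miR-181c-5p in D538G cells. Y537S against WT cells gave 38 in the miR-331-3p libraries, a comparison chosen after seeing the data. Calls over all genes moved under these alternatives as well. For miR-301b-3p in Y537S cells 541 of all 15145 genes were called, 5819 with the block and 23 with the GC correction. For miR-331-3p in Y537S cells 4913 of all 14877 genes were called, 9035 with the block and 3050 with the GC correction. The causes were not tested. Leaving out 1 library gave 0 to 0, 0 to 2 and 0 to 2 for miR-301b-3p in Y537S, D538G and WT cells, 10 to 20 and 3 to 14 for miR-331-3p in Y537S and WT cells, 0 to 1 and 1 to 3 for miR-181c-5p in D538G and WT cells, 5 to 22 for Y537S and 18 to 27 for D538G against WT cells, and 0 to 14 for the difference in the miR-331-3p response. A lone library left in a group was assumed to vary like the other group. Without the share of all genes in these fits, the counts do not set the 44 genes apart from other genes. Over the single genes and alternatives, 1403 values stayed on the same side of the threshold, 75 newly passed it and 66 no longer passed it.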
